A study of Mus musculus with 4 samples.

Results

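The genes described here are 39 genes of glycolysis and of the transcriptional response to low oxygen, out of 22063 genes listed in the count table. They were taken by name from a list of symbols, by no rule on their values, and all 39 were found. The list was chosen with earlier results of these data known, so counts of members called only describe it. By role they are 15 enzymes of glycolysis, 6 enzymes that set the fate of pyruvate or the level of fructose-2,6-bisphosphate, 6 genes of the hypoxia-inducible factor (HIF) alpha subunits and of oxygen sensing, and 12 other known HIF targets. RNA was sequenced from 4 libraries of TKPTS cells, called TKPT in the sample labels, a mouse proximal tubule epithelial line. The 2 Scrambled libraries (replicates 2 and 3, genotype WT, the study's si-NC) were from cells given a control siRNA, and the 2 Itgb6-siRNA libraries (replicates 1 and 3, genotype *Itgb6* knockdown, the study's si-*Itgb6*) from cells given an siRNA against *Itgb6*, the integrin subunit that pairs with the αv chain. All 4 libraries were from cells held for 24 h at 1% O2 and 5% CO2 and then returned to normal oxygen for 12 h. No library of cells kept in normal oxygen throughout was analysed here, so levels after hypoxia and reoxygenation are described and the change caused by hypoxia is not.

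Glycolysis splits glucose into pyruvate, and lactate dehydrogenase turns pyruvate into lactate when mitochondria do not take it up. When oxygen is present, prolyl hydroxylases (*Egln1* and *Egln3*) mark the HIF alpha subunits, the VHL ligase then has them degraded, and a further hydroxylase, *Hif1an*, blocks their coactivators. When oxygen is short, the alpha subunits last, pair with *Arnt* and switch on glycolytic enzymes, glucose transport, angiogenic factors and, as feedback, *Egln1* and *Egln3* themselves. Proximal tubule cells in the kidney burn mainly fatty acids and make glucose rather than use it, and cultured tubule lines are known to lean on glycolysis.

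Total counts were between 15435087 and 17220285 per library, and 11727 genes, all 39 members among them, passed the filter on low counts and were tested. *Itgb6* had 17.5 and 16.4 CPM (counts relative to library size, scaled by TMM factors) in the Scrambled libraries and 18.0 and 15.8 CPM in the Itgb6-siRNA libraries, or -0.01 on the log2 scale (SE 0.13, adjusted p = 0.991 from the quasi-likelihood test in edgeR, adjusted by Benjamini-Hochberg). The target mRNA was therefore not lower by more than the spread between libraries, and group names follow the labels. The study states that it checked the siRNA by qPCR and western blot, and it reports less αvβ6 protein in hypoxic cells. Protein was not measured in these libraries. Log2 fold changes, always Itgb6-siRNA against Scrambled, fell with the GC content of transcripts (Spearman's rho -0.364 over the genes, and genes are no independent replicates). The share of counts from mitochondrially encoded genes was 2.46% and 2.55% in the Scrambled libraries and 2.96% and 2.91% in the Itgb6-siRNA libraries. Of the 13 mitochondrially encoded genes, 9 were called higher, beside 2.11% of all genes tested. After trends with GC content and transcript length were removed, 4 of the 13 were called higher. Of 20 proximal tubule markers, 6 had no count in any library, the transporters *Slc34a1*, *Slc5a2* and *Slc22a6* among them, and *Hnf4a* had at most 1 count, while *Pax8* and *Cdh16* each had over 1000 counts in every library. *Aqp1*, the water channel, was the marker of this list called higher, with 387 and 477 counts in Scrambled and 601 and 633 counts in Itgb6-siRNA (log2 fold change 0.59, adjusted p = 0.000617, and 0.00125 without the GC and length trends). Simple epithelial markers such as *Krt8*, *Krt18* and *Krt19* had at least 10600 counts in every library, and *Krt8* was called lower (log2 fold change -0.20, adjusted p = 0.00881). Of the tubular injury markers *Havcr1* was called higher (0.19, adjusted p = 0.0358) and *Lcn2* lower (-0.17, adjusted p = 0.0322). Without the GC and length trends *Krt8*, *Havcr1* and *Lcn2* did not pass, at -0.11, 0.12 and -0.14 (adjusted p = 0.2, 0.239 and 0.122). Of 10 macrophage and leukocyte markers, *Cd68* had 1534 to 1968 counts per library, *Csf1r* 365 to 468 and *Cd14* 137 to 190, while the other 7, the defining markers *Ptprc* and *Adgre1* among them, had at most 11 counts. Of 9 fibroblast and pericyte markers, *Pdgfrb* had 35 to 55 counts per library, and the highest of the other markers were *Col1a1*, *Col1a2* and *Col3a1*, with 22, 11 and 14 counts in Itgb6-siRNA replicate 1 and at most 2 counts in each of the other libraries. Of 6 endothelial markers, *Egfl7* had 91 to 117 counts and *Cdh5* 40 to 66 counts per library, and *Pecam1*, *Kdr*, *Tek* and *Emcn* had at most 7 counts. The part of these differences in the results on the 39 genes was not tested. In bulk RNA, fewer cells that express a gene and less of its RNA per cell cannot be told apart. Nothing in the labels says that replicates were separate cultures, so the p-values measure the spread between these libraries, which may be technical.

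HIF binds DNA at a core spelled ACGTG or GCGTG, and the letters around the start sites of the genes on which the results turn are shown to let a reader see where such cores lie. RefSeq promoters (GRCm38.p6) matched 36 of the 39 members, and *Bnip3l*, *Ndrg1* and *Epas1* were not matched. In the 250 bases upstream of a start site, searched on both strands, 31 of the 36 members (86.1%) held at least 1 ACGTG or GCGTG, against 62.9% of the 9329 tested genes and 41.5% of the 27025 genes with a promoter in the table. A gene with several start sites had more places for a match. Counted by start site, the shares were 74.1% of 54, 56.5% of 11956 and 38.6% of 32851. No match was found for *Gpi1*, *Tpi1*, *Eno2*, *Vhl* and *Hif1an*. A match is a run of letters and not a measured site. Capitals mark the cores, on the opposite strand as CACGT or CACGC, and a CACGTG holds the core on both strands. Shown are *Adm*, *Egln1* and *Gapdh*, the members called lower, with *Slc2a1*, the glucose transporter called with them.
Adm (chr7:110627557-110627617, + strand): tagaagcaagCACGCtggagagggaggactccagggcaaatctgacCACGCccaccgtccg
Egln1 (chr8:124949308-124949390, - strand): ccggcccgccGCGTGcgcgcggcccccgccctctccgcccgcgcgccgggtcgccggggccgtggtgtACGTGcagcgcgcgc
Gapdh (chr6:125165803-125165837, - strand): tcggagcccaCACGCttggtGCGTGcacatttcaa
Slc2a1 (chr4:119108674-119108723, + strand): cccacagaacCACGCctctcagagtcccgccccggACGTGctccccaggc

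For comparison, the same kind of stretch is given for *Ldha*, *Pgk1* and *Bnip3*, which are textbook HIF targets whose difference between the groups did not pass the test, and for *Hif1a* itself.
Ldha (chr7:46845649-46845784, + strand): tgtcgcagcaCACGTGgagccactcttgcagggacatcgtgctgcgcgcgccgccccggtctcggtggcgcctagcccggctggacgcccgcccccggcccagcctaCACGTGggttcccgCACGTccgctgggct
Pgk1 (chrX:106186940-106186983, + strand): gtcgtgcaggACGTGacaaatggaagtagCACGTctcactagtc
Bnip3 (chr7:138909527-138909633, - strand): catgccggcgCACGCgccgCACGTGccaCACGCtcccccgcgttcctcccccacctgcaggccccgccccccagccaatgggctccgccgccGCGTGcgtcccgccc
Hif1a (chr12:73907722-73907811, + strand): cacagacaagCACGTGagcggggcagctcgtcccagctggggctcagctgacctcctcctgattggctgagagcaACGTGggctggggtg

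Members called lower and members not called both carried cores close to the RefSeq start site, with 2 matches in the *Adm*, *Egln1*, *Gapdh*, *Slc2a1* and *Pgk1* stretches and 5 matches in the *Ldha* and *Bnip3* stretches. The last bases of the *Egln1* and *Slc2a1* stretches lie within an exon of GENCODE vM21, which places the start of these genes further upstream than the RefSeq entry used. It also places the starts of *Gapdh*, *Ldha* and *Hif1a* further upstream. The stretches of these genes lie within the annotated gene, outside its exons.

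Transcripts of the glycolytic enzymes were among the most abundant in these cells. On the FPKM scale, which is per length and lets genes be set side by side, 9 of the 39 members were among the 100 highest of all genes listed, and 8 were above 1000 FPKM. The 15 glycolytic enzymes took 5.57% and 5.64% of all FPKM in the Scrambled libraries and 5.34% and 5.11% in the Itgb6-siRNA libraries. *Gapdh*, which oxidises glyceraldehyde-3-phosphate, led with a mean of 12530 FPKM over the 4 libraries and was second of all genes listed. It was followed by *Ldha*, the muscle-type lactate dehydrogenase, with 3851 FPKM and by *Aldoa*, the main aldolase, with 3773 FPKM, and the ranges of these latter genes overlapped. *Pkm*, pyruvate kinase, followed with 3337 FPKM, *Pgk1*, phosphoglycerate kinase, with 2889 FPKM, *Eno1*, enolase, with 2370 FPKM and *Tpi1*, triose phosphate isomerase, with 1849 FPKM. Each of these 4 lay apart from its neighbours in every library. The upper steps were lower. *Gpi1*, glucose phosphate isomerase, had 771 FPKM, *Pfkl*, the liver-type phosphofructokinase, had 275 FPKM and *Hk1*, hexokinase 1, had 116 FPKM.

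**Figure D1:**
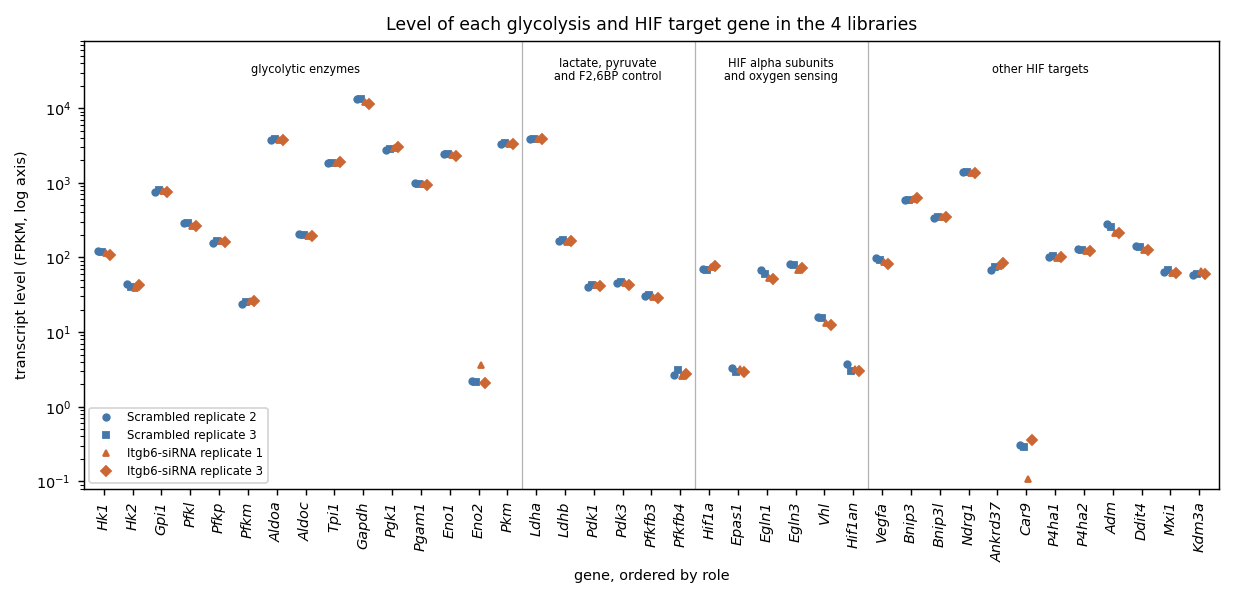
Level of each of the 39 members in FPKM (log axis) in the 4 libraries, ordered by role, with 1 point per library. Levels run from 0.264 FPKM for *Car9* to 12530 FPKM for *Gapdh*, and the 4 points of a gene lie close together beside these differences between genes.

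Among the other members, *Ndrg1*, a stress-induced differentiation gene, stood at 1364 FPKM, and the mitophagy receptors *Bnip3* and *Bnip3l* at 604 and 346 FPKM. *Hif1a* had 71.9 FPKM, and its order relative to *Egln3* above it and *Mxi1* below it could not be told, because the ranges over the libraries overlapped. From *Ankrd37* down to *Egln1* there were 6 members at 75.8 to 57.8 FPKM, each overlapping the next. The lowest were *Hif1an* with 3.23 FPKM, *Epas1* with 3.06 FPKM, *Pfkfb4* with 2.78 FPKM and *Eno2* with 2.51 FPKM, of which each overlapped the next, and *Car9*, the cell-surface carbonic anhydrase, with 0.264 FPKM. *Car9* had 10 counts in each Scrambled library and 2 and 12 counts in the Itgb6-siRNA libraries, so its difference could not be measured at this depth.

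Isozymes were unevenly used. Of the FPKM of all enolase genes listed, *Eno1* made up 70.1% ± 0.0692 (SD, n = 2) in Scrambled and 69.4% ± 0.0512 in Itgb6-siRNA, its near-identical copy *Eno1b*, which is no member, 29.7% ± 0.0646 and 30.4% ± 0.0939, and *Eno2* and *Eno3* the small remainder. The other shares are within the members of each family. Of these, *Ldha* made up 95.8% ± 0.0547 and 95.9% ± 0.0205, and *Aldoa* 94.99% ± 0.165 and 95.1% ± 0.0342. *Hif1a*, the alpha subunit found in most cells, made up 95.7% ± 0.278 and 96.1% ± 0.244 of the pair with *Epas1*, the alpha subunit known from endothelium and interstitium. *Pfkfb3*, which makes fructose-2,6-bisphosphate and so drives phosphofructokinase, made up 91.5% ± 0.575 and 91.6% ± 0.502 of the pair with *Pfkfb4*. Hexokinase was more mixed, with 73.6% and 74.2% *Hk1* in Scrambled and 74.7% and 71.6% in Itgb6-siRNA, and the groups overlapped. *Pdk1* and *Pdk3*, kinases that close the pyruvate dehydrogenase gate, were nearly equal, with *Pdk1* at 47.7% ± 0.903 and 48.7% ± 0.346. *Egln1* made up 44.3% ± 1.86 and 42.5% ± 1.40 of the pair with *Egln3*. Over all families the largest difference in share between the groups was that of *Pfkl* in phosphofructokinase, from 61.3% and 59.8% in Scrambled to 58.5% and 58.2% in Itgb6-siRNA, a difference of -2.21 percentage points. The exact two-sided permutation p was 0.333 for *Pfkl*, the smallest that 2 against 2 libraries allow, so no share could pass a threshold.

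**Figure D2:**
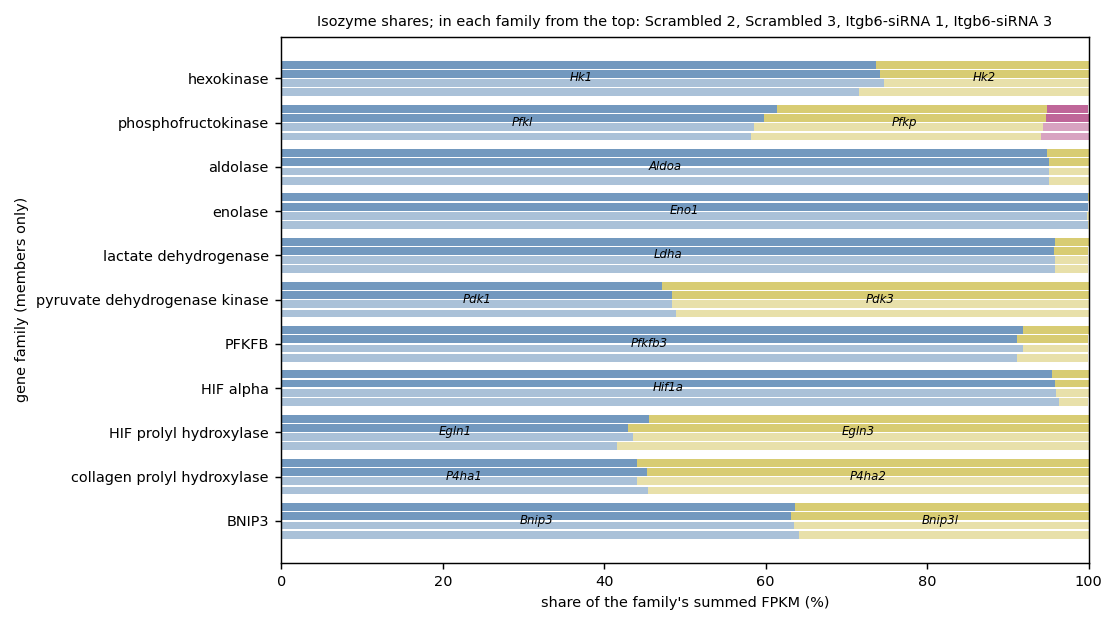
Share of each member in the summed FPKM (%) of its family, with 1 bar per library and the libraries of a family in the order given in the title; darker bars are Scrambled and paler bars Itgb6-siRNA, and genes outside the 39, such as *Eno1b*, are left out. The unlabelled right-hand segments are *Pfkm*, *Aldoc*, *Eno2*, *Ldhb*, *Pfkfb4* and *Epas1*, and the 4 bars of a family end at nearly the same places.

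Most of the 39 genes differed little in size between the groups. At an adjusted p under 0.05 from edgeR's quasi-likelihood test, 3 members were lower in Itgb6-siRNA (*Adm*, *Egln1* and *Gapdh*), beside 2.52% of all genes tested that were lower, and 0 were higher, beside 2.11% of all genes tested. At an unadjusted p under 0.05, 9 of the 39 passed in either direction, beside 18.4% of all genes tested. At an adjusted p under 0.1, 5 were lower and 1 was higher, beside 4.32% and 3.73% of all genes tested. DESeq2's Wald test likewise called *Adm*, *Egln1* and *Gapdh* lower and 0 members higher, beside 0.965% and 0.913% of the 15340 genes entered. By the study's thresholds, an unadjusted p under 0.05 with a fold change over 1.2, 3 members were lower (*Adm*, *Egln1* and *Vhl*), against 5.20% of all genes tested, and 0 were higher, against 4.37%. The groups did not overlap in 18 members that were lower and 8 that were higher in Itgb6-siRNA, where 25.4% and 23.8% of all genes tested behaved so. The median log2 fold change of the 39 was -0.04, against 0.00 over all genes tested, and the median absolute value was 0.07 against 0.13. These genes were also measured more finely, with a median standard error of 0.05 against 0.12 over all genes tested. For 28 of the 39 the 95% confidence interval lay within a 1.2-fold change in either direction.

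**Figure D3:**
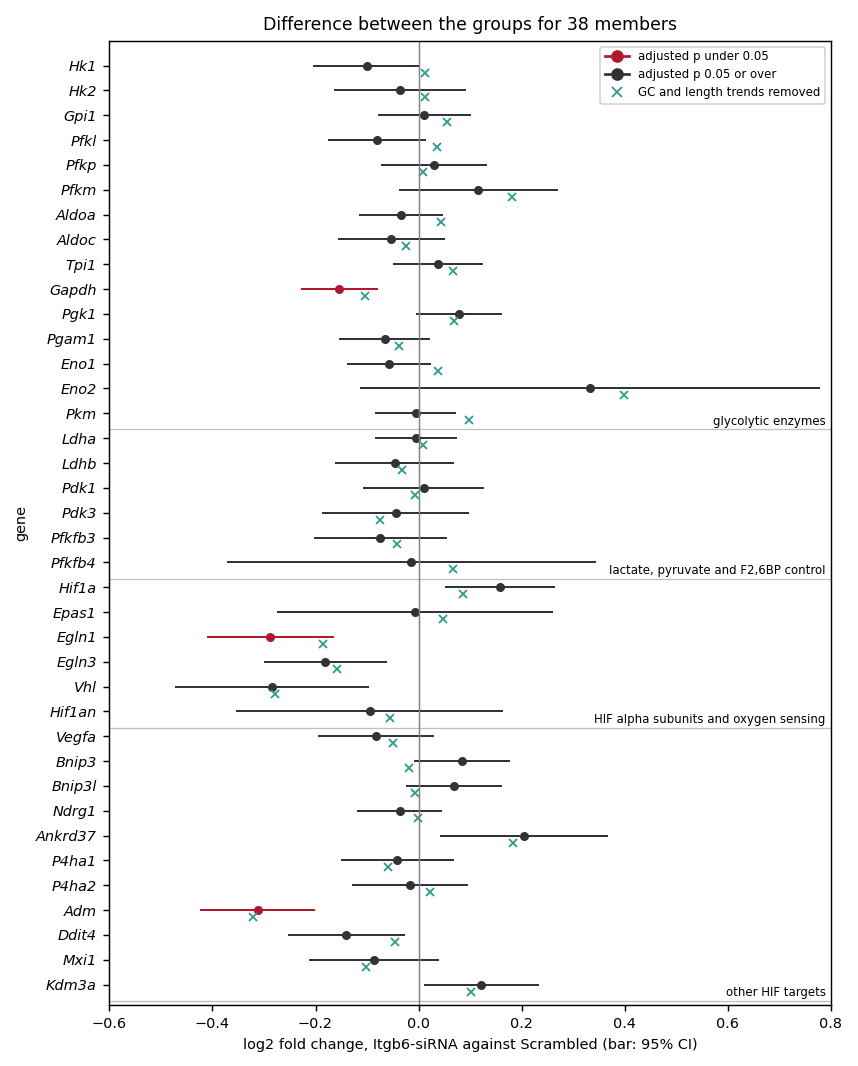
Log2 fold change of Itgb6-siRNA against Scrambled for 38 members (*Car9*, whose interval runs from -1.92 to 1.03, is left out), with dots for the estimates, bars for 95% confidence intervals and crosses for the estimates after trends with GC content and transcript length were removed. *Adm*, *Egln1* and *Gapdh*, in red, lie to the left of 0, and most other intervals cross 0.

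Along the glycolytic chain, 1 of the 15 enzymes was called and the others, apart from *Pfkm* and *Eno2*, had log2 fold changes between -0.10 and 0.08. *Hk1*, which traps glucose in the cell, had 465 and 448 CPM in Scrambled and 433 and 418 CPM in Itgb6-siRNA, without overlap, and its log2 fold change of -0.10 did not pass (95% confidence interval -0.20 to 0.00, adjusted p = 0.274). *Gpi1* had 1620 and 1682 CPM against 1668 and 1660 CPM, so the groups overlapped. *Pfkl*, the step that commits sugar to glycolysis, had 904 and 925 CPM against 871 and 858 CPM (log2 fold change -0.08, adjusted p = 0.352). These upper steps thus differed by less than their intervals could separate from 0.

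*Aldoa* had 5512 and 5703 CPM in Scrambled and 5471 and 5484 CPM in Itgb6-siRNA. *Tpi1* had 2913 and 2925 CPM against 2911 and 3079 CPM. Neither passed the test, with log2 fold changes of -0.03 and 0.04. *Gapdh* had 17560 and 17660 CPM in Scrambled and 16090 and 15560 CPM in Itgb6-siRNA, so that the groups lay apart by more than either pair differed. On the log2 scale the difference was -0.15 (SE 0.04, adjusted p = 0.00835, edgeR), a change of -10.1%, and it was under the study's fold threshold. Once trends with GC and length were taken out it was -0.10 (adjusted p = 0.0490). Without Scrambled replicate 2 or Scrambled replicate 3 the difference was -0.16 or -0.15 and the adjusted p 0.316 or 0.168. Stretches of at least 200 bases that are at least 95% identical to *Gapdh* occur in 90 other annotated genes, of which 3 are listed, and in none of the libraries was its estimated count whole, so reads may be shared with copies.

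Below *Gapdh*, the payoff steps did not pass. *Pgk1* had 5061 and 5205 CPM in Scrambled and 5299 and 5539 CPM in Itgb6-siRNA, higher without overlap (log2 fold change 0.08, adjusted p = 0.292). It passed only without Itgb6-siRNA replicate 1 (adjusted p = 0.00233). *Pgam1*, phosphoglycerate mutase, had 1773 and 1731 CPM against 1679 and 1668 CPM. *Eno1* had 4780 and 4912 CPM against 4661 and 4652 CPM, and its near-identical copy *Eno1b* was listed apart with 28773, 31444, 27448 and 29290 counts, so the level of enolase is split over 2 entries. *Pkm* had 7916 and 8098 CPM against 7957 and 7999 CPM, a log2 fold change of -0.01 with a 95% confidence interval from -0.08 to 0.07. *Hk2*, the inducible hexokinase, had 239 and 224 CPM in Scrambled and 209 and 242 CPM in Itgb6-siRNA, the widest spread within a group among the hexokinases. Of the side isozymes, *Hk2*, *Pfkp*, *Pfkm* and *Aldoc* had log2 fold changes from -0.05 to 0.12, and *Eno2*, with 4.98 to 7.37 CPM, had 0.33 with an interval from -0.11 to 0.78. The median of the 15 was -0.03, and it was 0.04 once trends with GC and length were taken out, so the sign of this small value depends on that setting.

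None of the 6 enzymes of pyruvate fate and fructose-2,6-bisphosphate level passed (0 of 6 also at an unadjusted p under 0.05, and 0 by DESeq2). *Ldha* had 6119 and 6113 CPM in Scrambled and 6031 and 6156 CPM in Itgb6-siRNA, a log2 fold change of -0.01 with a 95% confidence interval from -0.08 to 0.07, and the groups overlapped. *Pdk1* had 209 and 224 CPM against 219 and 217 CPM. *Pfkfb3* had 139 and 145 CPM against 135 and 135 CPM, lower without overlap and with a log2 fold change of -0.07 (adjusted p = 0.571). *Ldhb*, the heart-type lactate dehydrogenase, *Pdk3* and *Pfkfb4* had log2 fold changes from -0.05 to -0.01.

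The oxygen-sensing genes held the members with the lowest p-values after *Adm* and *Gapdh* were set aside, with 1 of 6 called lower, 0 called higher and 4 of 6 at an unadjusted p under 0.05, which 18.4% of all genes tested reached. *Egln1*, the main oxygen-sensing prolyl hydroxylase of most cells, had 242 and 215 CPM in Scrambled and 188 and 187 CPM in Itgb6-siRNA. The Scrambled libraries differed from each other by about as much as the lower of them differed from the Itgb6-siRNA libraries, which were nearly equal. On the log2 scale the difference was -0.29 (SE 0.06, 95% confidence interval -0.41 to -0.17, adjusted p = 0.00307, edgeR). It was -0.19 once trends with GC and length were taken out, where it no longer passed (adjusted p = 0.0947), and -0.20 without Scrambled replicate 2 (adjusted p = 0.402). *Egln3*, the prolyl hydroxylase most strongly induced by HIF, had 214 and 211 CPM against 180 and 194 CPM, lower in both Itgb6-siRNA libraries (log2 fold change -0.18, adjusted p = 0.0661). It was -0.16 without the GC and length trends (adjusted p = 0.141, edgeR), and it ran from -0.23 to -0.13 with a library left out.

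*Vhl*, which recognises hydroxylated HIF alpha, had 44.1 and 43.3 CPM in Scrambled and 36.5 and 35.3 CPM in Itgb6-siRNA, with close replicates and no overlap. Its log2 fold change of -0.28 passed the study's thresholds (unadjusted p = 0.00393 from edgeR's quasi-likelihood test) and missed the adjusted threshold (adjusted p = 0.0672). It was also -0.28 without the GC and length trends (adjusted p = 0.108, edgeR). *Hif1a* went the other way, with 319 and 311 CPM in Scrambled and 348 and 354 CPM in Itgb6-siRNA, a log2 fold change of 0.16 (adjusted p = 0.0724). Without the GC and length trends this was 0.09 (adjusted p = 0.401). With a library left out it ran from 0.14 to 0.17. *Epas1* had 18.0 and 15.9 CPM against 17.4 and 16.3 CPM, and *Hif1an* had 22.7 and 18.7 CPM against 19.8 and 18.9 CPM, and the groups overlapped for each.

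**Figure D4:**
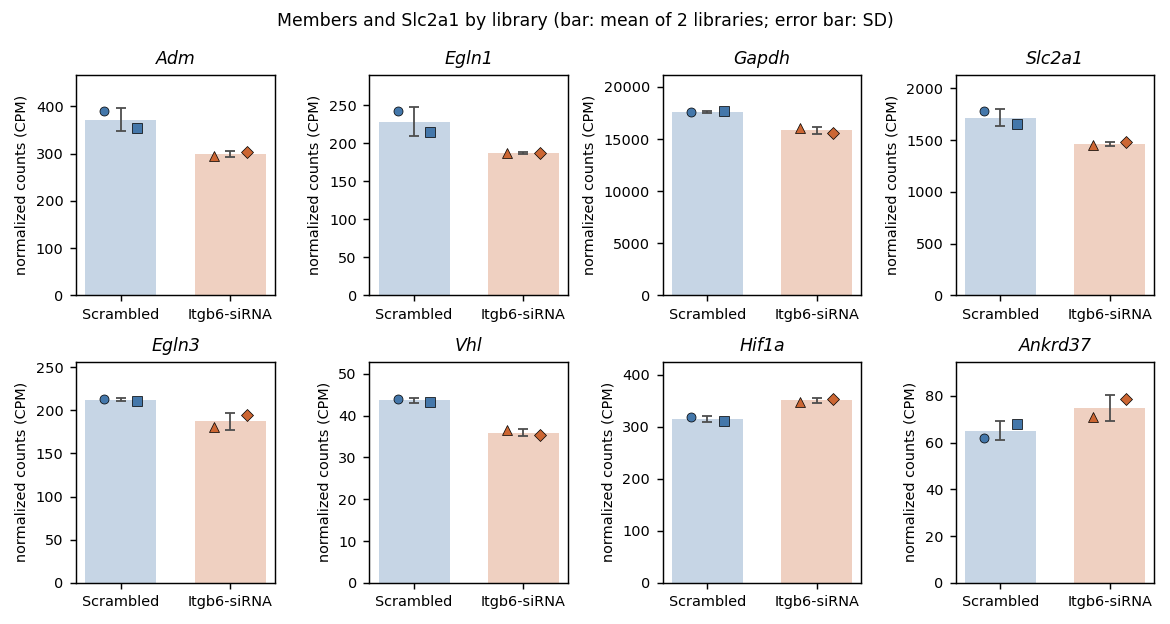
Normalized counts (CPM) in each library for 7 members and for *Slc2a1*, with bars for the mean of 2 libraries, error bars for the SD and points for the libraries. *Adm*, *Egln1*, *Gapdh*, *Slc2a1*, *Egln3* and *Vhl* are lower, and *Hif1a* and *Ankrd37* higher, in both Itgb6-siRNA libraries than in either Scrambled library; *Egln3*, *Vhl*, *Hif1a* and *Ankrd37* did not pass the adjusted threshold.

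Of the 12 other HIF targets, *Adm* was the only one called (1 lower and 0 higher). *Adm*, which encodes the vasodilator peptide adrenomedullin, had 389 and 355 CPM in Scrambled and 295 and 304 CPM in Itgb6-siRNA. Both Itgb6-siRNA libraries lay below both Scrambled libraries. This was a log2 fold change of -0.31 (SE 0.05, 95% confidence interval -0.42 to -0.20, adjusted p = 0.00049, edgeR), a change of -19.5%, and it was -0.32 once trends with GC and length were taken out (adjusted p = 0.00139). Without Scrambled replicate 2 it was -0.25 (adjusted p = 0.231). *Vegfa*, the angiogenic growth factor, had 241 and 240 CPM against 231 and 224 CPM, lower without overlap, with a log2 fold change of -0.08 (adjusted p = 0.446). *Ddit4*, an inhibitor of mTORC1 signalling, had 251 and 242 CPM against 220 and 226 CPM (log2 fold change -0.14, adjusted p = 0.142).

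Some targets lay higher. *Ankrd37*, a small ankyrin-repeat gene, had 62.1 and 67.9 CPM in Scrambled and 71.0 and 78.8 CPM in Itgb6-siRNA (log2 fold change 0.20, adjusted p = 0.140). *Ankrd37* ran from 0.13 to 0.28 with a library left out, and stood at 0.18 without the GC and length trends (adjusted p = 0.234, edgeR). Its exons overlap those of *Lrp2bp* and *Ufsp2* on the opposite strand, and reads of such pairs cannot be told apart without strand. The same limit holds for *Gapdh* (with *Iffo1*), *Aldoa* (*Fam57b*), *Tpi1* (*Spsb2*), *Pfkp* (*Pitrm1*) and *Pfkm* (*Senp1*). *Kdm3a*, a histone H3 lysine demethylase, had 266 and 279 CPM against 302 and 291 CPM (log2 fold change 0.12, adjusted p = 0.206). *Bnip3* had 981 and 980 CPM against 1028 and 1050 CPM, and *Bnip3l* had 1074 and 1112 CPM against 1134 and 1159 CPM. Their log2 fold changes were 0.08 and 0.07, neither past the threshold, which were -0.02 and -0.01 without the GC and length trends. *Ndrg1* was nearly level, with 3948 and 3935 CPM against 3813 and 3871 CPM. *Ndrg1*, *Mxi1*, a MYC antagonist, and the collagen prolyl hydroxylases *P4ha1* and *P4ha2* had log2 fold changes from -0.09 to -0.02, none past the threshold. Of the 12, 8 were below 0 and 4 above, with a median of -0.04.

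The rest of the pathway was read from 7 further lists, also chosen with earlier results of these data known. In these lists 91 of 117 genes were tested, 8 were called lower and 4 higher. Of all genes tested, 2.52% were called lower and 2.11% higher. Among glucose and lactate transporters (7 of 13 tested, 1 lower, 0 higher), *Slc2a1*, the GLUT1 glucose transporter and a HIF target, had 1777 and 1657 CPM in Scrambled and 1448 and 1479 CPM in Itgb6-siRNA. Both Itgb6-siRNA libraries were below both Scrambled libraries, with a log2 fold change of -0.23 (SE 0.04, adjusted p = 0.00165, edgeR). It was called in every other setting tried except without Scrambled replicate 2 (adjusted p = 0.344). The lactate exporters did not pass, with log2 fold changes of -0.13 for *Slc16a1* (adjusted p = 0.273) and -0.03 for *Slc16a3* (adjusted p = 0.787). *Slc2a4*, the insulin-responsive GLUT4, passed the study's thresholds with 40 and 37 counts in Scrambled and 18 and 21 counts in Itgb6-siRNA (log2 fold change -0.91, adjusted p = 0.214).

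Around pyruvate entry to mitochondria 1 of 12 tested genes was called, *Pdp2*, a phosphatase that opens pyruvate dehydrogenase, with 374 and 540 counts in Scrambled and 571 and 564 counts in Itgb6-siRNA (log2 fold change 0.39, adjusted p = 0.0479). Scrambled replicate 2 alone was low for *Pdp2*, and without it the log2 fold change was 0.19 (adjusted p = 0.684), against 0.64 without Scrambled replicate 3. *Pdp2* was called in 4 of 8 alternatives of test, scaling, filter and GC and length, and without the GC and length trends it stood at 0.38 (adjusted p = 0.0992); without Itgb6-siRNA replicate 1 the adjusted p was 0.0832. *Pdp1*, of the same kind, passed the study's thresholds (0.51, adjusted p = 0.264). Of the gluconeogenic genes 4 of 7 were tested, and *G6pc3*, the widely expressed glucose-6-phosphatase, was called lower (log2 fold change -0.31, adjusted p = 0.0400, and -0.22 with adjusted p = 0.216 without the GC and length trends), a call that was lost with each library left out (adjusted p = 0.0775 to 0.318). The proximal tubule's own gluconeogenic genes were near or at 0, with 1 count of *Pck1* in all and none of *Fbp1*. None of the 8 pentose phosphate genes and none of the 15 tested HIF partners, degradation factors and coactivators passed; 1 and 0 of these had an unadjusted p under 0.05, and the log2 fold change of *Arnt* was -0.04 (adjusted p = 0.799). Among 9 tested glycolytic isozymes and hexokinase partners outside the 39, 0 were called, and *Adpgk*, the ADP-dependent glucokinase, passed the study's thresholds (log2 fold change -0.29, adjusted p = 0.140).

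Further HIF targets moved in opposite directions, with 6 lower and 3 higher of 36 tested, beside 2.52% and 2.11% of all genes tested. The lower ones were *Kdm4b*, a histone demethylase (log2 fold change -0.43, adjusted p = 0.00195), *Bhlhe41* (-0.42, adjusted p = 0.0475) and *Bhlhe40* (-0.21, adjusted p = 0.00823), repressors of the circadian clock, *Ero1a*, an oxidase of the endoplasmic reticulum (-0.32, adjusted p = 8.97e-05), *Gys1*, glycogen synthase (-0.28, adjusted p = 0.00128), and *Rbpj*, the Notch transcription factor (-0.25, adjusted p = 0.00379). The higher ones were *Tfrc*, the transferrin receptor (log2 fold change 0.45, adjusted p = 2.92e-06), *Wsb1*, a ubiquitin ligase subunit (0.30, adjusted p = 0.0266) and *Jmjd6* (0.18, adjusted p = 0.0476). All adjusted p-values here are from edgeR's quasi-likelihood test over all genes tested. *Ero1a* had 40699 and 37847 counts in Scrambled and 28555 and 31286 counts in Itgb6-siRNA, and *Tfrc* had 4173 and 4650 counts against 5458 and 6025 counts, so the groups lay apart in both. *Stc2* and *Rora* passed the study's thresholds with 0.36 and 0.30 (adjusted p = 0.257 and 0.143). Without the GC and length trends *Kdm4b*, *Bhlhe41* and *Wsb1* no longer passed, at -0.29, -0.43 and 0.24 (adjusted p = 0.0770, 0.0695 and 0.145), so that the estimate of *Bhlhe41* was no smaller there. Of the 8 alternatives of test, scaling, filter and GC and length, *Wsb1* was called in 5 and *Jmjd6* in 7. With a library left out their log2 fold changes ran from 0.199 to 0.404 and from 0.163 to 0.199. The call of *Bhlhe41* was also lost with each library left out (adjusted p = 0.0623 to 0.428), and without Scrambled replicate 2 *Tfrc* alone of all the genes in the 7 lists passed (adjusted p = 0.0205). The median of the 36 was 0.03, close to that of all genes tested, while single targets lay on either side of it.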

How the data were processed

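Estimated counts and FPKM values per gene, deposited by the authors for 4 libraries, were analysed. Polyadenylated RNA had been sequenced in pairs without strand information, and after a cluster analysis the authors optimized the samples; the aligner, counter, genome build and annotation are not given in the sources used here. The deposited estimated counts are not normalized, and 1447 to 1500 genes per library were not whole. They were rounded to whole numbers, filtered with filterByExpr of edgeR 4.0.16 (minimum count 10, minimum total count 15) in R 4.3.3, scaled by TMM and compared, 2 Scrambled against 2 Itgb6-siRNA libraries, with the quasi-likelihood test, p-values being adjusted by Benjamini-Hochberg over 11727 genes. Standard errors (SE) were derived from each fold change and its F statistic, and confidence intervals are at 95%. The deposited FPKM values, normalized by the authors for length and depth, served only to set levels of genes and isozyme shares side by side. No permutation of 2 against 2 libraries goes below a two-sided p of 0.333.

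The script was tested on simulated data. The study's thresholds, the exact and likelihood ratio tests, DESeq2 1.42.0, other scalings and filters, removal of GC and length trends by lowess offsets and leaving out each library were the alternatives. Positions are those of GENCODE vM21 (GRCm38) and promoters those of RefSeq (GRCm38.p6), which may differ from the authors' annotation, and near-identical copies were sought with BLAST 2.17.0. The table holds 2 entries named *Aldoa*, of which ENSMUSG00000030695 was used; the other had 12 to 19 counts per library. The members and lists were chosen with earlier results of these data known. Values in every library are given for members past the study's thresholds or the adjusted p, for the best-measured member of each step and for the oxygen-sensing genes. Other pathway genes are named where called at the adjusted p, or where they passed the study's thresholds, together with *Slc2a1*, *Slc16a1*, *Slc16a3*, *Arnt*, *Pck1* and *Fbp1*; an item of this rule is not reported here; the other members and markers named were chosen after their values were seen.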

Additional observations from a re-analysis of the deposited data

How the results depend on the processing

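With 2 libraries a group, leaving out 1 leaves a lone library that is assumed to vary like the other group, and Scrambled replicate 2 decided the most calls. Without it no member was called (13 genes of all tested were, 6 lower and 7 higher), and leaving out the libraries in turn gave 0 to 4 members lower, 0 to 3 higher (the 3 were *Hif1a*, *Pgk1* and *Ankrd37*, without Itgb6-siRNA replicate 1, where 368 of all genes tested were higher), beside 0.05% to 3.45% of all genes lower and 0.0584% to 3.07% higher, as well as 0 to 7 other pathway genes lower and 1 to 5 higher. At an adjusted p under 0.1, 5 members were lower and 1 higher (*Hif1a*), beside 4.32% and 3.73% of all genes tested. *Adm* and *Gapdh* were called lower under all 8 alternatives of test, scaling, filter and GC and length, *Egln1* under 7 of these 8 (not without the GC and length trends), and *Egln3* was also called with library size only and with no filter. Of the other pathway genes, 5 were lower and 2 higher without the GC and length trends, beside 0.888% and 0.948% of all genes. With DESeq2 2 were higher, beside 0.913% of all genes, and with library size only 1 was, beside 1.48%. The median log2 fold change of the glycolytic enzymes was 0.0378 without the GC and length trends and -0.0331 to -0.0021 with a library left out; that of the other HIF targets was -0.0509 to 0.00524 with a library left out. The cause of these changes was not tested. No paired analysis was possible because the groups share only replicate number 3.

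Values that changed sign were all of genes that did not pass. Without the GC and length trends the log2 fold change was 0.0124 for *Hk1*, 0.0119 for *Hk2*, 0.0365 for *Pfkl*, 0.0434 for *Aldoa*, 0.0378 for *Eno1*, 0.0971 for *Pkm*, 0.00871 for *Ldha*, -0.00634 for *Pdk1*, 0.0663 for *Pfkfb4*, 0.0470 for *Epas1*, -0.0179 for *Bnip3*, -0.0063 for *Bnip3l* and 0.0220 for *P4ha2*. With library size only it was -0.00338 for *Gpi1* and -0.00418 for *Pdk1*. With a library left out it ran from -0.103 to 0.0909 for *Itgb6*, -0.144 to 0.0651 for *Hk2*, -0.0165 to 0.0417 for *Gpi1*, -0.0215 to 0.0862 for *Pfkp*, -0.00156 to 0.0764 for *Tpi1*, -0.0225 to 0.0146 for *Pkm*, -0.0175 to 0.00872 for *Ldha*, -0.0406 to 0.0659 for *Pdk1*, -0.115 to 0.0788 for *Pfkfb4*, -0.0888 to 0.0812 for *Epas1*, -0.226 to 0.0488 for *Hif1an*, -2.14 to 0.287 for *Car9*, -0.0857 to 0.00355 for *P4ha1* and -0.0390 to 0.00694 for *P4ha2*.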
